A study of Rattus norvegicus with 24 samples.

Results

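Acetylcholine is the transmitter of the motor neurons of the brain stem, and 6 genes that such neurons use were followed through a feeding study of rotenone, an inhibitor of mitochondrial complex I. The members were chosen by symbol (Chat, Slc18a3, Slc5a7, Isl1, Prph and Ache), and each was read from the transcript cluster with that symbol in the annotation of the array. All 6 were found among 68842 clusters, and 5 of the 6 had a cluster of their own, out of 22093 genes with one. Ache had only a cluster that also carries the symbol Ufsp1, a gene within the bounds of Ache, so its value cannot be assigned to Ache alone and is called the Ache/Ufsp1 cluster. The brain stems came from male RccHan Wistar rats aged 7 to 8 weeks that received 400 ppm rotenone in the chow, or untreated chow as the control, for 1, 3 or 14 days. Each of the 6 groups held 4 rats with 1 Affymetrix RTA 1.0 array each, which gave 24 arrays. Values are log2 of the deposited intensities, and a difference was taken on this scale as the mean of the rotenone rats less that of the controls fed for as long.

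Chat encodes choline acetyltransferase, which makes acetylcholine in the nerve terminal, and Slc18a3 encodes the transporter that loads it into vesicles. Slc5a7 encodes the transporter that takes choline back up after acetylcholinesterase, the product of Ache, has split the transmitter in the synaptic cleft. Isl1 is a transcription factor of motor and sensory neurons, and Prph encodes peripherin, an intermediate filament of neurons that send axons out of the central nervous system. Cholinergic neurons of the tegmentum of the brain stem also use the transmitter genes, but they are not motor neurons.

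Slc18a3 lies wholly within Chat on the same strand in the RefSeq annotation of GRCr8, and the annotated start sites of both genes are 602 bases apart. All 6 members had a promoter in the RefSeq table, and the 250 bases before the start site are shown for the 4 members whose values moved most closely together between rats. Capitals mark TGACG or its reverse complement CGTCA, the half-site of the factor CREB, and TATAAA, the TATA box, which were searched on both strands and do not overlap here. The windows are chr16:7723417-7723666 for Chat, chr16:7722815-7723064 for Slc18a3 and chr9:7953510-7953759 for Slc5a7, all on the minus strand, and chr7:132097039-132097288 for Prph on the plus strand.
Chat: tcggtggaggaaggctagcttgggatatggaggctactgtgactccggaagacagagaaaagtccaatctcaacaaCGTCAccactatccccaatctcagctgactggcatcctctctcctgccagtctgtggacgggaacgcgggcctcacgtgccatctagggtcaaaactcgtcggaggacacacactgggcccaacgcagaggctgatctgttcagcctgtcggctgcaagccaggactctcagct
Slc18a3: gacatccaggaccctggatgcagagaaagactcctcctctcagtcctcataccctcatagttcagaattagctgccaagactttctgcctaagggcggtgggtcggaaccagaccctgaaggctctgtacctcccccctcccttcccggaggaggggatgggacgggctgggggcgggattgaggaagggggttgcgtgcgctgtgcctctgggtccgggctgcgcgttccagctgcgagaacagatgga
Slc5a7: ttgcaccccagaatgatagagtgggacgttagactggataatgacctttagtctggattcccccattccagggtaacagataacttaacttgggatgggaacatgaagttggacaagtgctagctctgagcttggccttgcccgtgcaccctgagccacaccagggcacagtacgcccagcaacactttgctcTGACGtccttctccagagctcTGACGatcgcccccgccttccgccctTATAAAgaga
Prph: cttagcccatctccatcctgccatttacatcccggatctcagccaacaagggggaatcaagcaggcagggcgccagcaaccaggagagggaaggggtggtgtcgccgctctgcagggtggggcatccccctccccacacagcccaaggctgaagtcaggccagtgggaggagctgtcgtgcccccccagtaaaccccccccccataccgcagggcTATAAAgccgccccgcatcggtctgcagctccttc
The CREB half-site was found once in the window of Chat and at 2 places in that of Slc5a7, and 18.2% of the 33469 promoters of the table hold it in the same 250 bases. TATAAA was found in the windows of Slc5a7 and Prph, against 12.9% of all promoters. The window of Slc18a3 held neither, but 2 matches to GGGCGG, the GC box, which 30.5% of all promoters hold on either strand. The windows of Slc5a7 and Prph held 1 GC box each as well. No motif of these was found in all 4 windows, and a match describes letters only.

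The tissue was checked before the members were compared. All 9 measured Hox genes of the hindbrain were at or above the median cluster (6.24), as were 10 of 10 noradrenergic and serotonergic genes and 7 of 7 genes of glycine and GABA neurons. So were 15 of 15 cerebellar, 8 of 8 meningeal and 5 of 8 forebrain and midbrain genes, and this level alone does not single out a region. The mean over 15 cerebellar markers reached 12.19 and 11.74 in replicates 1 and 3 of the controls of day 1, against 8.22 to 9.28 in the other 22 arrays. These 2 control arrays are called the arrays with cerebellar transcripts, or cerebellar arrays, and their Hox mean was 7.05 and 6.02, against 7.20 to 8.34 in the others. Array medians lay between 70.7 and 82.6 intensity units, and the precision is limited by how few arrays a group holds. Calca, a marker of cranial motor neurons, had a mean of 6.86.

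No member differed between rotenone and control past the test on any day. With limma, 0 of 6 members had an adjusted p under 0.05 at day 1, day 3 or day 14, against 0%, 0% and 0.0378% of all 68842 clusters. At an unadjusted p under 0.05, only Isl1 was found at day 1, against 7.65% of all clusters, and no member was found at day 3 or day 14, against 3.17% and 10.8%. Over the 6 members the median difference of days 1, 3 and 14 was 0.44, -0.21 and -0.032, beside 0.033, 0.00090 and 0.053 over all clusters. At day 1 all 6 members were higher on average in rotenone rats than in controls. The 2 controls with cerebellar transcripts were among the 4 lowest of the 24 arrays for each of the 6 members. Without them the median over the members was -0.033 at day 1, and 3 of 6 differences were above 0. As whole pieces of tissue were measured, fewer neurons of a type and less RNA per neuron cannot be told apart.

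**Figure D1:**
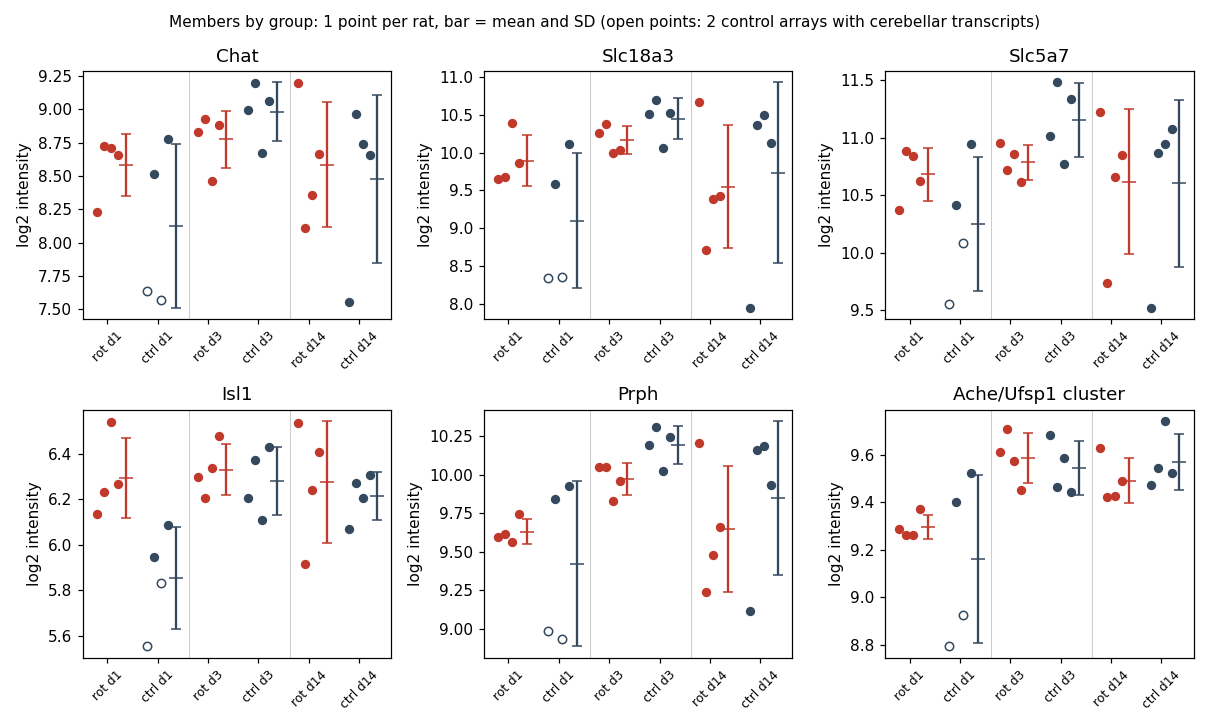
Log2 intensity of each member (vertical axis) in the 6 groups of treatment and day (horizontal axis), with 1 point for each of the 24 rats, rotenone in red, control in dark blue, and bars for the mean and SD of 4 rats. The open points, control day 1 replicates 1 and 3, sit at or near the bottom for each member, and control day 14 replicate 1 is the lowest point for Chat, Slc18a3 and Slc5a7.

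For Chat, the enzyme of acetylcholine synthesis, rotenone rats of day 1 had 8.23, 8.72, 8.71 and 8.65, against 7.64, 8.52, 7.57 and 8.78 in control rats. At day 3 the values were 8.83, 8.93, 8.46 and 8.88 with rotenone, against 9.00, 9.20, 8.68 and 9.07 in control rats. At day 14 they were 9.20, 8.11, 8.36 and 8.66 with rotenone, against 7.55, 8.97, 8.74 and 8.66 in control rats. The groups overlapped on every day, and the lowest values of the series belonged to control rats. Rotenone minus control came to 0.45 ± 0.29 (SE) at day 1 (limma, adjusted p = 0.75), to -0.21 ± 0.29 at day 3 and to 0.11 ± 0.29 at day 14. On omission of the arrays with cerebellar transcripts, day 1 gave -0.068 (95% interval -0.71 to 0.58). Control day 3 had the highest mean (8.98 ± 0.22, SD, n = 4) and control day 1 the lowest (8.13 ± 0.61), and no gap between neighbouring group means was larger than the larger of their SDs.

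Slc18a3, the vesicular acetylcholine transporter, varied most of the members between rats. Rotenone rats of day 1 had 9.66, 9.68, 10.39 and 9.85, against 8.34, 9.58, 8.36 and 10.11 in control rats. At day 3 the values were 10.26, 10.38, 9.99 and 10.03 with rotenone, against 10.51, 10.69, 10.06 and 10.52 in control rats. Control values were higher in 3 of 4 rats of day 3 than any rotenone value of that day, and the groups overlapped through the remaining control. At day 14 rotenone rats had 10.67, 8.71, 9.39 and 9.43, against 7.95, 10.37, 10.49 and 10.12 in control rats. Both groups of day 14 spanned a wide range and overlapped, with a high rat (10.67) under rotenone and a low rat (7.95) among the controls. Day 1 gave a difference of 0.80 ± 0.47 (SE; limma, adjusted p = 0.72), day 3 one of -0.28 ± 0.47 and day 14 one of -0.18 ± 0.47. With the cerebellar arrays left out, that of day 1 was 0.048 (95% interval -1.06 to 1.15). The group means ran between 10.45 ± 0.27 (SD, n = 4) in control day 3 and 9.10 ± 0.89 in control day 1, and only the gap by which rotenone day 3 (10.16 ± 0.19) lay below control day 3 was larger than the larger SD of its pair.

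Slc5a7, the choline transporter of the terminal, had 10.37, 10.89, 10.84 and 10.62 in rotenone rats of day 1, against 9.55, 10.41, 10.08 and 10.94 in control rats. At day 3 rotenone rats had 10.96, 10.72, 10.85 and 10.61, against 11.02, 11.48, 10.77 and 11.33 in control rats. At day 14 they had 11.22, 9.74, 10.66 and 10.85, against 9.52, 10.86, 10.94 and 11.08 in control rats. As for Slc18a3, 3 of 4 controls of day 3 lay above all rotenone rats of that day, and the groups overlapped on every day. The differences were 0.43 ± 0.32 (SE; limma, adjusted p = 0.79), -0.36 ± 0.32 and 0.014 ± 0.32 at days 1, 3 and 14. That of day 1 was 0.0028 (95% interval -0.77 to 0.78) when the cerebellar arrays were omitted. Rotenone day 3 (10.79 ± 0.15, SD, n = 4) stood below control day 3 (11.15 ± 0.32) by more than the larger SD, and the other neighbouring means did not.

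The Ache/Ufsp1 cluster had 9.29, 9.26, 9.26 and 9.37 in rotenone rats of day 1, against 8.79, 9.40, 8.93 and 9.52 in control rats. At day 3 rotenone rats had 9.61, 9.71, 9.58 and 9.45, against 9.69, 9.46, 9.59 and 9.44 in control rats. At day 14 rotenone rats had 9.63, 9.42, 9.43 and 9.49, against 9.47, 9.54, 9.74 and 9.52 in control rats. The 4 rotenone values of day 1 lay between the low and the high pair of controls, and the groups overlapped on the other days too. The differences were 0.13 ± 0.12 (SE), 0.044 ± 0.12 and -0.079 ± 0.12 at days 1, 3 and 14, and without the cerebellar arrays that of day 1 was -0.17 (95% interval -0.38 to 0.046). Only the step between rotenone day 14 (9.49 ± 0.096, SD, n = 4) and rotenone day 1 (9.30 ± 0.052) was larger than the larger SD of neighbouring groups.

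Isl1, the transcription factor, was the member with the clearest difference at day 1, which did not pass the adjusted test. Rotenone rats of day 1 had 6.13, 6.23, 6.54 and 6.27, against 5.56, 5.95, 5.83 and 6.09 in control rats. All rotenone rats lay above all controls, as was the case for 2.42% of all clusters at this day. The difference was 0.44 ± 0.13 (SE; 95% interval 0.17 to 0.71), with an adjusted p of 0.49 by limma. The two-sided exact permutation test gave p = 0.0286, the smallest value that 4 against 4 rats allow. Leaving out the cerebellar arrays gave 0.28 (95% interval -0.030 to 0.59), and the remaining controls, 5.95 and 6.09, lay below the lowest rotenone rat. At day 3 rotenone rats had 6.30, 6.21, 6.34 and 6.48, against 6.20, 6.37, 6.11 and 6.43 in control rats. At day 14 they had 6.54, 5.92, 6.24 and 6.41, against 6.07, 6.27, 6.21 and 6.31 in control rats. The groups overlapped on both days, and the differences were 0.051 ± 0.13 and 0.063 ± 0.13. Averaged over the days, Isl1 was 0.18 ± 0.075 higher with rotenone, in 10 of 12 rats against the control mean of their day (limma adjusted p = 0.40; exact permutation p = 0.0324). Of all clusters, 0.00291% passed this averaged test, and none of the members did. Without the cerebellar arrays the average of Isl1 was 0.13 (95% interval -0.026 to 0.29). The level of Isl1 (mean 6.21) was just under that of the median cluster, and only control day 14 (6.21 ± 0.10, SD, n = 4) stood above its neighbour, control day 1 (5.86 ± 0.22), by more than the larger SD.

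Prph, the filament of peripherally projecting neurons, had 9.60, 9.62, 9.56 and 9.74 in rotenone rats of day 1, against 8.98, 9.84, 8.94 and 9.93 in control rats. At day 3 rotenone rats had 10.05, 10.05, 9.83 and 9.96, against 10.19, 10.31, 10.02 and 10.24 in control rats. At day 14 rotenone rats had 10.20, 9.24, 9.48 and 9.66, against 9.12, 10.16, 10.18 and 9.93 in control rats. At day 1 the controls split into a high and a low pair on either side of the rotenone rats, and at day 3 the groups overlapped through 1 control. Differences of 0.21 ± 0.23 (SE), -0.22 ± 0.23 and -0.20 ± 0.23 were obtained for days 1, 3 and 14. For day 1 it was -0.25 (95% interval -0.75 to 0.24) once the cerebellar arrays were omitted. Rotenone day 3 (9.97 ± 0.10, SD, n = 4) lay below control day 3 (10.19 ± 0.12) by more than the larger SD, with an exact permutation p of 0.0857, and the remaining neighbours did not differ beyond their spread.

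**Figure D2:**
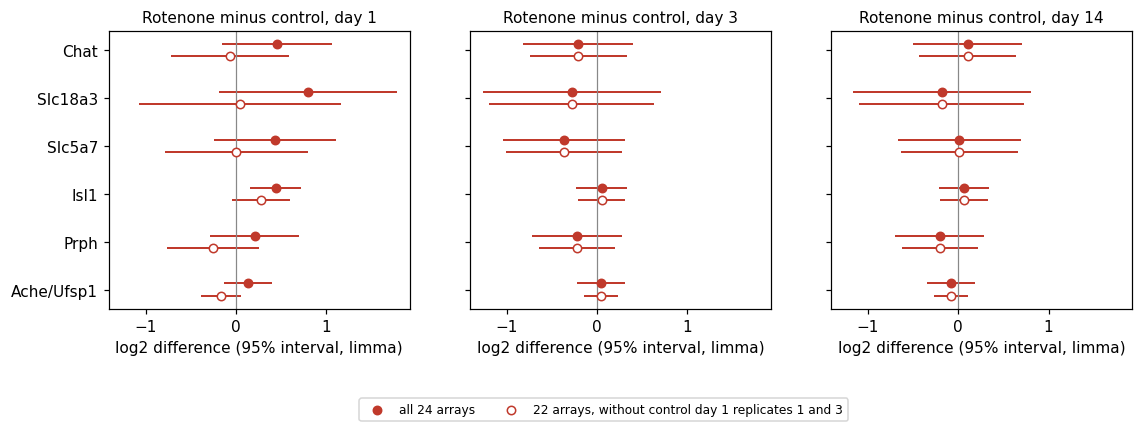
Difference between rotenone and control rats of day 1, 3 and 14 (horizontal axis, log2, with 95% intervals from limma) for the 6 members (vertical axis), with filled points for all 24 arrays and open points for the 22 arrays without control day 1 replicates 1 and 3. At day 1 the open points of Chat, Prph and the Ache/Ufsp1 cluster lie below 0 and that of Isl1 at 0.28, and at days 3 and 14 both kinds of point coincide.

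The effect of rotenone was not shown to differ between the days for any member. In the test of the interaction of treatment and day, 0 of 6 members had an adjusted p under 0.05, against 0% of all clusters, and the lowest adjusted p was 0.96, that of Isl1 (limma). Within the control diet, day 3 exceeded day 1 by 0.86 for Chat, 1.35 for Slc18a3, 0.90 for Slc5a7, 0.42 for Isl1, 0.77 for Prph and 0.38 for the Ache/Ufsp1 cluster. These 6 differences had unadjusted p-values between 0.0032 and 0.0102 and adjusted p-values between 0.45 and 0.48 (limma), so that 0 of 6 passed, against 0% of all clusters. At an unadjusted p under 0.05, 6 of 6 were higher, against 4.47% of all clusters, but the members vary together between rats and share the control day 1 arrays with the comparison of treatments at day 1. Without the cerebellar arrays they came to 0.34, 0.60, 0.47, 0.26, 0.31 and 0.082 in the same order. Within rotenone rats, day 3 exceeded day 1 by 0.20, 0.27, 0.11, 0.036, 0.34 and 0.29, and 0 of 6 passed, against 0% of all clusters.

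The members varied together between rats of the same group. The lowest and the highest of the 24 arrays differed 6.72-fold for Slc18a3, 3.89-fold for Slc5a7, 3.14-fold for Chat, 2.59-fold for Prph, 1.98-fold for Isl1 and 1.93-fold for the Ache/Ufsp1 cluster. The SD within groups was 0.72 for Slc18a3, which was larger than for 98.6% of the 1671 clusters of similar level. It was 0.49 for Slc5a7 and 0.44 for Chat (larger than for 96.0% and 95.7% of clusters of similar level), and 0.35 for Prph (89.1%). Isl1 and the Ache/Ufsp1 cluster, with 0.18 and 0.17, were larger than 31.6% and 53.3% only. Rotenone day 14 replicate 1 was among the 4 highest arrays for 6 of 6 members, and rotenone day 14 replicate 2 among the 4 lowest for 5. Control day 14 replicate 1 was among the 4 lowest for 4 members, and control day 3 replicate 4 among the 4 highest for 5.

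After the group means were removed, 14 of the 15 pairs of members were correlated over the 24 arrays with an adjusted p under 0.05 (permutation within groups, adjusted over the 15 pairs by Benjamini and Hochberg). With Spearman's rho it was 12 of 15. Chat and Slc18a3, the nested genes, had r = 0.94 (permutation p = 2e-05, adjusted p = 0.00015) and rho = 0.91 (permutation p = 6e-05, adjusted p = 0.0006). Without the 2 arrays farthest from the median of Chat, r was 0.92. Chat and Prph, which lie on different chromosomes, had r = 0.96 (permutation p = 3e-05, adjusted p = 0.00015) and rho = 0.90 (permutation p = 0.00016, adjusted p = 0.0006), and r = 0.93 without the 2 farthest arrays. No other cluster of the array had a higher r with Chat than Prph, and only Prph had a higher r with Chat than Slc18a3. With the Ache/Ufsp1 cluster, by contrast, 380 clusters had a higher r than Prph, 1103 than Chat and 6794 than Isl1. Slc18a3 and Prph had r = 0.95, Slc18a3 and Slc5a7 r = 0.90, Chat and Slc5a7 r = 0.87, and Slc5a7 and Prph r = 0.85.

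Isl1 followed Slc5a7 (r = 0.80) and Chat (r = 0.72) more loosely. The pair of Isl1 and the Ache/Ufsp1 cluster was the exception, with r = 0.37 (permutation p = 0.185, adjusted p = 0.185) and rho = 0.13 (permutation p = 0.594, adjusted p = 0.594). The 3 pairs of Chat, Slc18a3 and Prph had r between 0.85 and 0.88 in the 12 rotenone rats and between 0.97 and 0.99 in the 12 control rats. Within single days, with 8 rats each, these 3 pairs had r between 0.89 and 0.93 at day 1, 0.85 and 0.95 at day 3, and 0.98 and 0.99 at day 14. Over all 15 pairs the median r of days 1, 3 and 14 was 0.87, 0.45 and 0.78, and in the rats of day 3 Isl1 and the Ache/Ufsp1 cluster had r = -0.88. Without the arrays with cerebellar transcripts 10 pairs passed, which were the 10 without the Ache/Ufsp1 cluster. Without rotenone day 14 replicate 1, in which all members were high, 10 pairs passed as well.

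**Figure D3:**
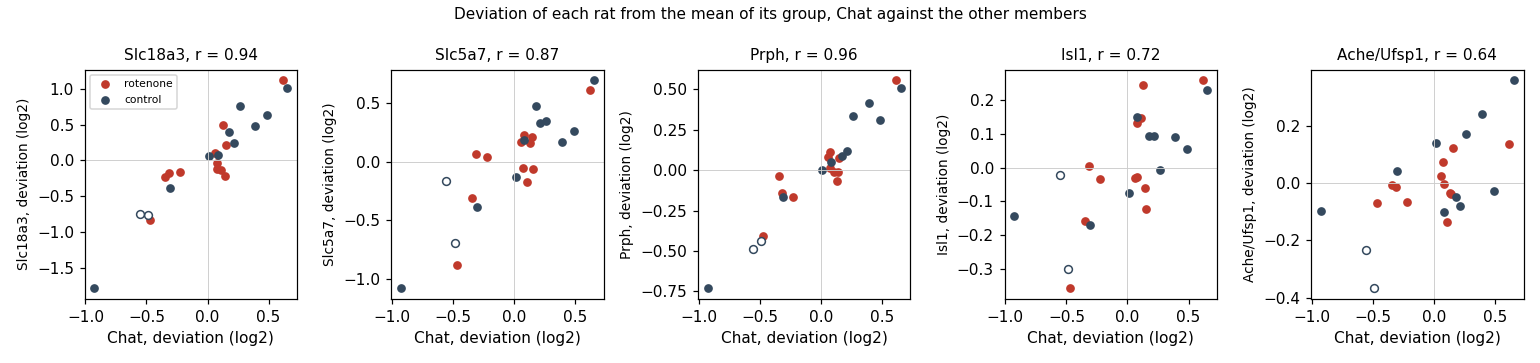
Deviation of each rat from the mean of its group for Chat (horizontal axis, log2) against the other 5 members (vertical axes, log2), rotenone in red and control in dark blue, 24 points a panel, with the 2 control arrays with cerebellar transcripts open. The points of Slc18a3 and Prph lie along a line (r = 0.94 and 0.96), and those of Isl1 and the Ache/Ufsp1 cluster scatter more widely (r = 0.72 and 0.64).

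Among 14459 other genes at or above the median level, those most like the members were ranked by r with the mean of the 6 group-centred members over the 24 arrays, given as a description. Arhgap36 had the highest r (0.92), followed by Ahnak2 (0.90), Ecel1 (0.89) and Layn (0.89). Ecel1 encodes a membrane metalloprotease of neurons that is induced after nerve injury. Tagln2 and Bcam had 0.86 each, Rspo2 and Calca 0.85 each, and Cd55 and Adam19 0.84 each. Calca encodes the calcitonin gene-related peptide of motor and sensory neurons, and Bcam a laminin receptor. The r of these 10 genes without the arrays with cerebellar transcripts lay between 0.81 and 0.93, and 26 genes in all exceeded 0.8.

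The wider cholinergic and motor neuron lists held 99 measured genes, of which 0 passed limma at day 1, day 3, day 14 or on average. At an unadjusted p under 0.05, 15 were higher and 7 lower with rotenone at day 1, that is 15.2% and 7.07%, against 4.45% and 3.2% of all clusters. Omission of the cerebellar arrays left 2 higher and 2 lower at day 1 (2.02% each), against 2.39% and 0.879% of all clusters in that fit. Day 3 had 0 higher and 3 lower (1.88% and 1.29% of all clusters), and day 14 had 2 higher and 7 lower (6.94% and 3.84%). For the 99 genes the median differences of days 1, 3 and 14 were 0.063, -0.011 and -0.0090.

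In the supply of choline and acetyl groups (13 genes), Slc44a1, a choline transporter of the plasma membrane, was 0.028 ± 0.085 (SE) higher with rotenone on average. Acly, which makes acetyl-CoA, differed by -0.078 ± 0.096 and followed the members closely (r = 0.80). Gdpd2 and Chkb, a choline kinase, differed by -0.12 ± 0.052 and -0.074 ± 0.045. At day 14, 0 of the 13 genes of this list had a difference above 0, and the values ran from -0.99 to -0.0079. Their median was -0.098, beside 0.053 over all clusters and -0.0051 over all genes, and none passed the test. At days 1 and 3, 9 and 4 of the 13 were above 0. Without the arrays with cerebellar transcripts, Enpp6 differed by -0.60 ± 0.13 on average (limma adjusted p = 0.23). That was the lowest adjusted p of the average in this list. Of 16 nicotinic receptor subunits, Chrna4 differed by 0.21 ± 0.092 and Chrnb2, its partner in the common receptor of the brain, by -0.11 ± 0.061. Without the arrays with cerebellar transcripts, Chrna4 differed by 0.094 ± 0.078 and Chrnb2 by -0.080 ± 0.048. Chrne, the subunit of the adult muscle receptor, differed by 0.098 ± 0.056. Among the 10 receptor partners, Rapsn, which clusters receptors at the muscle endplate, differed by 0.13 ± 0.058, and Lynx1, a membrane-bound modulator, by 0.032 ± 0.050. Lypd1 and Lypd6b, of the same protein family as Lynx1, differed by -0.085 ± 0.13 and 0.10 ± 0.062.

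All 5 muscarinic receptors had an average difference above 0, with a median of 0.16, beside 0.027 over all clusters, and none of the 5 passed the test. Chrm2, the inhibitory receptor found on cholinergic terminals, differed by 0.43 ± 0.17 (SE; limma adjusted p = 0.40) and was above the control mean of its day in 10 of 12 rotenone rats. Chrm3 and Chrm4 differed by 0.18 ± 0.096 and 0.16 ± 0.067, likewise above in 10 of 12 rats each. By day, Chrm2 differed by 0.74 ± 0.30 (day 1), 0.16 ± 0.30 (day 3) and 0.38 ± 0.30 (day 14). In a fit without the arrays with cerebellar transcripts, added after these values were seen, Chrm2 differed by 0.22 ± 0.31 at day 1 and by 0.25 ± 0.16 on average. In that fit 4 of the 5 receptors had an average difference above 0, with a median of 0.20, beside 0.025 over all clusters, and Chrm5 had -0.025 ± 0.12.

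Of 15 measured transcription factors of motor neurons, Esrrg differed by 0.16 ± 0.076 (SE) on average and Onecut1 by -0.19 ± 0.068 (limma adjusted p = 0.36), and Nkx6-1 by 0.0044 ± 0.12. Among 19 peptides, receptors and surface genes, Sv2b, a synaptic vesicle protein, differed by 0.29 ± 0.10 and was above the control mean in 11 of 12 rats (adjusted p = 0.34), and Lifr, a receptor subunit for neurotrophic cytokines, by 0.18 ± 0.066. Cntfr, another part of such a receptor, differed by -0.17 ± 0.074 and ran against the members (r = -0.70). Spp1, which encodes osteopontin, differed by 0.23 ± 0.15. Of 10 neurofilament and axon genes, Ina, which encodes internexin, differed by 0.16 ± 0.063 (adjusted p = 0.40). It was above the mean of all controls of its day in 12 of 12 rats, but was named for its small p of the average as well as its level. Without the arrays with cerebellar transcripts, Ina differed by -0.063 ± 0.10 at day 1 and by 0.076 ± 0.051 on average. Stmn2 differed by -0.054 ± 0.053 and Kif5a, a kinesin of axonal transport, by 0.076 ± 0.045, with all arrays. In the list for the injury response (11 genes measured), Ecel1 differed by -0.029 ± 0.29 and Jun by -0.21 ± 0.10, and the peptide genes Gal (galanin) and Npy (neuropeptide Y) by -0.30 ± 0.17 and -0.0084 ± 0.19. None of the genes named from these lists passed the test on any day or on average. Without the arrays with cerebellar transcripts, the average was 0.098 for Lifr, 0.036 for Spp1 and -0.082 for Cntfr. In that fit it was 0.23 for Sv2b, 0.095 for Esrrg and -0.11 for Onecut1.

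Markers of neighbouring regions were set beside the members as the mean of each list. The r of a listed gene with the mean of the members had a median of 0.63 (0.51 to 0.73) over the 9 Hox genes of the hindbrain and of -0.60 (-0.71 to -0.12) over the 15 cerebellar genes. It was 0.51 over 8 meningeal genes, -0.18 over 7 genes of all neurons, 0.17 over 10 choroid plexus genes and -0.013 over 6 oligodendrocyte genes, beside -0.057 over all clusters at or above the median level. The genes listed for other cholinergic regions (Lhx8, Gbx1, Gbx2, Nkx2-1, Zic4, Nos1 and Uts2r) had 0.014, and skeletal muscle genes 0.11. In 96 tests of 6 members against 16 list means, 0 had an adjusted p under 0.05 with Pearson's r and 1 with Spearman's rho (permutation within groups). That one was Chat with the meningeal mean, with r = 0.65 (permutation p = 0.00098, adjusted p = 0.0822) and rho = 0.68 (permutation p = 0.00032, adjusted p = 0.0307). The r of the 6 members with the cerebellar mean lay between -0.87 and -0.38, and without the arrays with cerebellar transcripts between -0.44 and 0.19. With the hindbrain mean it lay between 0.24 (Isl1) and 0.74 (the Ache/Ufsp1 cluster), and without those arrays between 0.035 and 0.54 (the same 2). The Ache/Ufsp1 cluster and the cerebellar mean had r = -0.87 (permutation p = 0.00747, adjusted p = 0.117) and rho = -0.65 (permutation p = 0.0181, adjusted p = 0.134), and r = -0.44 without the arrays with cerebellar transcripts. The part of the dissected region in the shared variation of the members was not tested.

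**Figure D4:**
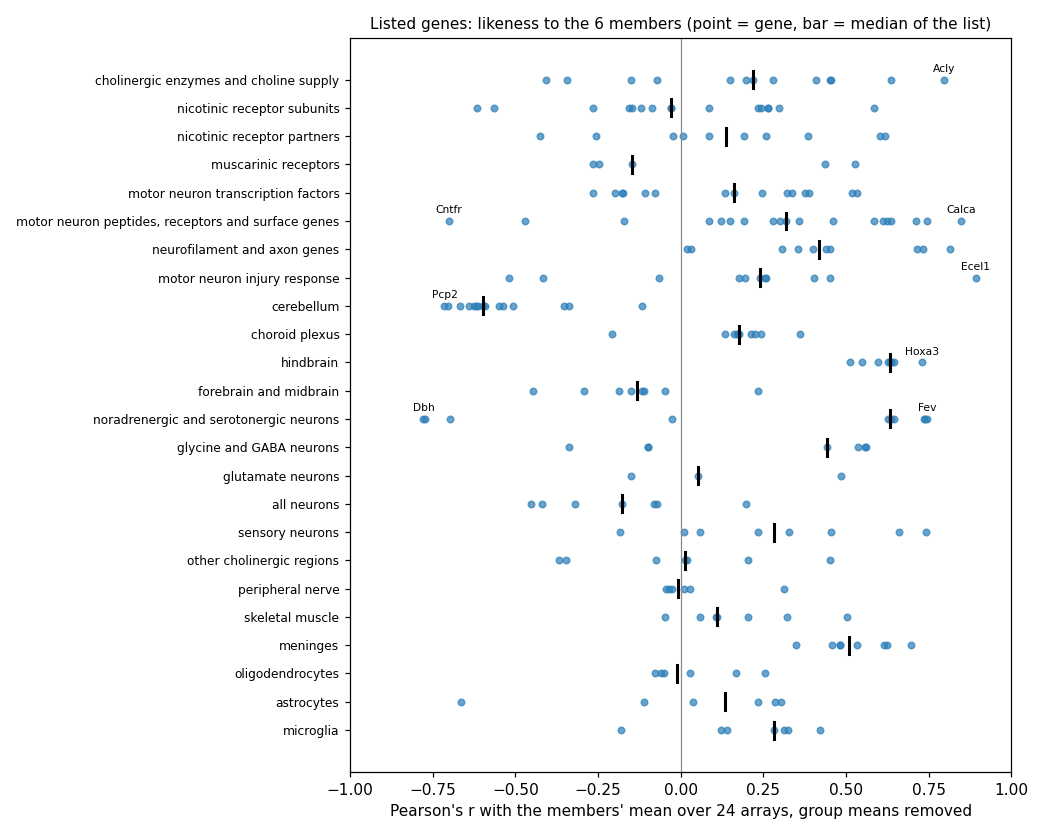
Pearson's r of each listed gene with the mean of the 6 members over 24 arrays after removal of the group means (horizontal axis), by list (vertical axis), with 1 point a gene and a bar for the median of the list. Hindbrain genes lie at 0.51 to 0.73 and all cerebellar genes below 0, while the list of noradrenergic and serotonergic genes holds points at both ends.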

How the data were processed

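RNA of the brain stem of 24 rats was hybridized to RTA 1.0 arrays. The authors corrected probe signals for GC content (GCCN), applied the signal space transformation (SST), summarized by RMA, and deposited 1 linear intensity for each transcript cluster. Control probe sets (1738 of 70580 entries) were dropped, and the remaining values were analysed as log2 with no further normalization. Symbols came from the annotation of the array, and the cluster with the highest mean represented a gene. A model of 6 group means was fitted by limma 3.58.1 under R 4.3.3 (18 residual and 3.64 prior degrees of freedom), and p-values were adjusted by Benjamini and Hochberg over 68842 clusters at 0.05. The fit was tested on simulated data. Correlations used values less the group means and 100000 permutations within groups (scipy 1.17.1, numpy 2.4.6, Python 3.11.15), and the smallest p these can give is 1e-05. Single genes were also compared by exact permutation. Replicates are separate rats. Replicate numbers did not pair the samples. The members and lists were chosen with earlier results of these data known. From each list the 2 genes of highest level and the 2 with the smallest p of the average were named, and the 10 genes most like the members. Enpp6 was named as well, after its value without the arrays with cerebellar transcripts was seen. Counts of rats above the control mean are no separate evidence for genes named for a small p. Figures were drawn with matplotlib 3.10.9, and some genes are not reported here.

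The alternatives were quantile normalization, centring of the arrays, a block for the replicate number, array weights, trend and robust priors, only clusters with 1 symbol, only clusters above the median level, the 8 arrays of a day alone, averaging of the clusters of a gene, omission of the arrays with cerebellar transcripts, covariates for the cerebellum and choroid plexus lists, the criteria of the study, pooled values, Spearman's rho, and each array left out.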

Additional observations from a re-analysis of the deposited data

Results flagged for a closer look

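In each of the 36 combinations of member and group, the lowest and the highest rat were set against the other 3 of the group, and 3 values stood apart by Dixon's test, where chance gives about 1 in 20. For Chat, rotenone day 1 replicate 1 had 8.23, and the other 3 rats lay between 8.65 and 8.72. For Slc18a3, control day 14 replicate 1 had 7.95, with the other 3 rats between 10.12 and 10.49. For Slc5a7 the same rat, control day 14 replicate 1, had 9.52, with the others between 10.86 and 11.08. Its cerebellar mean was 8.82 and its Hox mean 7.32, both inside the range of the other arrays without cerebellar transcripts. Within its group the Hox mean of this rat was the lowest, against 7.83 to 8.33 in the other 3 rats. Without this rat the difference of day 14 was -0.78 for Slc18a3 and -0.35 for Slc5a7, and neither passed the test.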

How the results depend on the processing

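Under the 11 alternatives fitted to these differences and 24 omissions of single arrays, no difference of a member between rotenone and control passed the test, and the lowest adjusted p was 0.113, for Isl1 at day 1. The difference of Isl1 at day 1 stayed between 0.27 and 0.51. Of the counts of members past the test, only that of day differences within the control diet moved, which lay between 0 and 1. The exception was the Ache/Ufsp1 cluster without control day 1 replicate 4, where day 14 exceeded day 1 by 0.53 (limma adjusted p = 0.0376). That omission kept both arrays with cerebellar transcripts among the controls of day 1. When these arrays were left out instead, day 14 exceeded day 1 by 0.11 (95% interval -0.10 to 0.32). With the replicate number as a block 0 members passed at day 1, day 3 and day 14, and the block changed no call. Same-numbered rats did not deviate together (median r -0.016 over 60 pairs).

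Other changes were of sign in values that did not pass. Without the arrays with cerebellar transcripts, the difference at day 1 was -0.068 for Chat, -0.25 for Prph and -0.17 for the Ache/Ufsp1 cluster, and the average was -0.057 for Chat, -0.14 for Slc18a3, -0.12 for Slc5a7 and -0.067 for the Ache/Ufsp1 cluster. Among the muscarinic receptors, for which this omission was chosen after seeing the data, Chrm1 was 0.079 at day 1 and Chrm5 was -0.025 on average. With covariates for the cerebellum and choroid plexus, day 1 was -0.14 for Chat, -0.065 for Slc18a3, -0.069 for Slc5a7, -0.34 for Prph and -0.23 for the Ache/Ufsp1 cluster. Day 14 was then -0.11 for Chat and -0.15 for Slc5a7, and the average was -0.13 for Chat, -0.25 for Slc18a3, -0.17 for Slc5a7 and -0.10 for the Ache/Ufsp1 cluster. With centred arrays, Slc5a7 was -0.076 at day 14 and -0.016 on average, Isl1 was -0.027 at day 14, and the Ache/Ufsp1 cluster was -0.0100 on average. With quantile normalization, Isl1 was -0.028 at day 14. The cause was not tested.

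With each array left out in turn, the difference of day 14 ran between -0.20 and 0.27 for Chat, -0.78 and 0.095 for Slc18a3, -0.35 and 0.31 for Slc5a7, and -0.024 and 0.18 for Isl1. Isl1 at day 3 ran between -0.0058 and 0.10. The average ran between -0.088 and 0.22 for Slc18a3, -0.093 and 0.13 for Slc5a7, and -0.0076 and 0.073 for the Ache/Ufsp1 cluster. Correlated pairs numbered 10 to 14 with 1 array left out. Isl1 gave no value among clusters above the median level, since its mean lies below it. The fits of a single day gave no average of days. With 4 rats a group, the SE of a day's difference ran between 0.12 for the Ache/Ufsp1 cluster and 0.47 for Slc18a3, which limits what was detectable.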

Other observations

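Within the list of monoamine neurons the genes ran in opposite directions with the members between rats of a group, which was seen after their values were known and is given as a description over 24 arrays. The noradrenergic genes Th, Dbh and Slc6a2, which encode enzymes of catecholamine synthesis and the noradrenaline transporter, had r = -0.70, -0.78 and -0.77 with the mean of the members. The serotonergic genes Tph2, Slc6a4 and Fev had r = 0.64, 0.64 and 0.74. The rest of the list, Ddc, Gch1, Maob and Slc18a2, had r = 0.63, 0.74, 0.74 and -0.028. All these r include the arrays with cerebellar transcripts, control day 1 replicates 1 and 3, where the mean of the list was 7.99 and 9.44. Pou4f1, a transcription factor of sensory and some brain stem neurons, had r = 0.74. It was the highest of 8 genes of the list of sensory neurons, whose median was 0.28 and whose lowest was -0.18. Gene lists share arrays and dissected pieces with the members, and the reason for these directions was not tested.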
